A study of Oreochromis niloticus with 14 samples.

Results

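The response of the testis to benzo(a)pyrene (BaP) was described from 6 RNA-Seq libraries, 3 BaP testes and 3 control testes of adult male Nile tilapia, out of 14 libraries in the series. All 16930 genes of the testis table were members. The other 8 libraries were livers, 4 BaP and 4 control, in a table of 12902 genes, of which 12377 are also in the testis table. BaP fish received 5 intraperitoneal doses of 3 mg/kg BaP at intervals of 6 days, control fish received the DMSO and corn oil carrier on the same schedule, and tissues were taken on day 26, 2 days after the last dose. All fish were males from a stock 1 year old. Each treatment had 24 fish in 2 aquaria of 12, with no aquarium shared between treatments, so an effect of the aquarium and an effect of BaP cannot be told apart. Each library came from 1 testis as bulk tissue, in which fewer cells of a type and less RNA per cell cannot be told apart.

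BaP is a polycyclic aromatic hydrocarbon that binds the aryl hydrocarbon receptor, a transcription factor held in the cytoplasm by HSP90 until a ligand arrives. The bound receptor enters the nucleus and switches on genes of xenobiotic metabolism, chiefly the cytochrome P450 enzymes of the CYP1 family, which oxidise BaP to products that can bind DNA. The testis holds germ cells at all stages, supporting Sertoli cells, steroid-making Leydig cells, vessels and resident immune cells. Gene roles given in this text are those known from mammals or zebrafish.

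Values are normalized read counts scaled to library size and library composition (CPM). Log2 fold changes are BaP over control on the log2(CPM + 1) scale, which understates the change of low genes, and are given with their standard error (SE). The libraries held 26694344 to 30347667 reads on genes, and 3 reads, the limit that a count of 0 allows, corresponded to 0.0972 to 0.111 CPM. Correlations of log2 values were 0.95 to 0.968 among BaP testes, 0.937 to 0.956 among control testes and 0.943 to 0.967 between the groups. The first principal component held 38.8% of the variance and did not separate the groups: BaP 1, BaP 2 and control 1 lay at -37.0, -15.9 and -49.1, and BaP 3, control 2 and control 3 at 32.9, 26.7 and 42.3. In 65.0% of genes the control testes varied more than the BaP testes. Gene symbols were known for 1364 testis genes, all from the gene list of the study, which holds genes it called altered in liver or testis. Every named gene therefore comes from a list chosen partly on these samples, and 7.04% of named genes passed the threshold of the study in testis, against 1.75% of unnamed ones. The label of the tissue could be checked only in part: 11 of 20 germ cell and sperm markers had a named row, among them the ciliary gene ift172 at 583 to 930 CPM and the piRNA helicase MOV10L1 at 105 to 147 CPM over the 6 libraries, while the defining markers ddx4, dazl, sycp3, star and cyp17a1 were not analysed here.

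By limma with Benjamini-Hochberg adjustment over all 16930 genes, cyp1b1 alone passed an adjusted p of 0.05 (0.00591% of the genes tested). The threshold of the study, an unadjusted p under 0.05 with a fold over 1.5, was passed by 369 genes (2.18%), 200 higher in BaP testes (1.18%) and 169 lower (0.998%). A p under 0.05 with no limit on the fold was reached by 426 genes, where 846.5 would be reached by chance. The split between higher and lower depended on the scaling: with library size only, 236 genes were higher and 127 lower. The exact test of edgeR, run on the reads recovered from the values, called 49 genes (0.289%), 29 higher and 20 lower, of which 31 had a name. Among those 49 genes, 18 had BaP and control testes that overlapped. Over all genes, every BaP testis lay above every control testis in 549 (3.24%) and below in 480 (2.84%). The log2 fold change was positive in 7844 genes and negative in 9086. For 1 gene, an exact permutation test of 3 against 3 testes cannot give a p below 0.1.

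**Figure D1:**
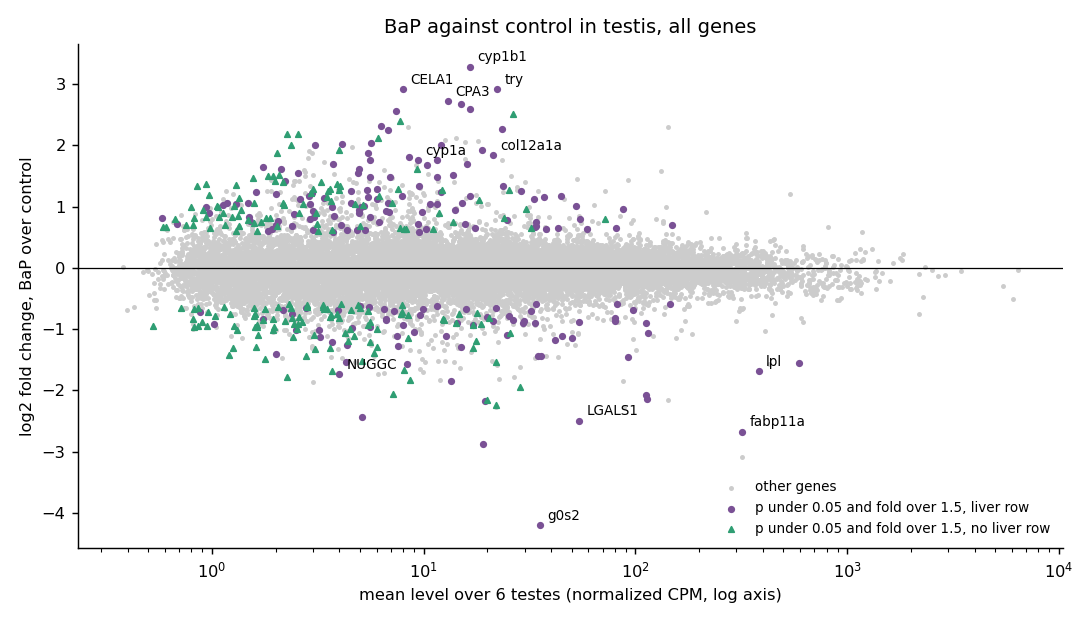
Each point is 1 of 16930 genes. The x axis is the mean level over 6 testes in normalized CPM (log axis) and the y axis the log2 fold change of BaP over control. Purple circles and green triangles mark the 369 genes at p under 0.05 and fold over 1.5, with and without a row in the liver table. cyp1b1 lies at 3.28 and g0s2 at -4.20.

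Among aryl hydrocarbon receptor genes, the CYP1 genes were high in all BaP testes. cyp1b1 (ENSONIG00000010388), which encodes a BaP-oxidising cytochrome P450, stood at 30.5, 30.5 and 30.9 CPM in BaP testes, against 1.55, 3.05 and 2.34 CPM in control testes. The BaP testes lay close together and far above every control testis. The mean was 30.6 ± 0.253 CPM in BaP testes and 2.32 ± 0.752 CPM in control testes (SD, n = 3 each), a ratio of 13.2 and a log2 fold change of 3.28 (SE 0.22, limma adjusted p = 0.0315). The adjusted p was 5.77e-12 by the edgeR exact test and 0.0624 by the edgeR quasi-likelihood test, and with 1 testis left out it was 0.0512 to 0.358 by limma, while the log2 fold change remained between 3.10 and 3.44. cyp1a, the classical receptor target, had 19.2, 12.1 and 11.8 CPM in BaP testes, against 1.07, 3.23 and 8.94 CPM in control testes. All BaP testes again lay above all control testes, but control 3 came close to them, and the log2 fold change of 1.76 (SE 0.55) had an unadjusted limma p of 0.0153 and did not pass adjustment.

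Of 21 symbols on the receptor list, 7 were found, as 8 genes. Of the 8, 3 were higher and 3 lower at the threshold of the study, which 7.04% of all named genes passed. The median log2 fold change was 0.21, against -0.02 over all genes. CYP2W1, another cytochrome P450, was at 36.1, 73.4 and 74.7 CPM in BaP testes, against 21.9, 16.4 and 45.2 CPM in control testes, so that BaP 1 overlapped the controls (unadjusted limma p = 0.0342, exact test adjusted p = 0.473). Both copies of a glutathione transferase and a transporter were lower. One copy of GSTA1, a glutathione transferase (ENSONIG00000009685), had 64.1, 63.0 and 89.1 CPM in BaP testes, against 208, 97.0 and 166 CPM in control testes (log2 fold change -1.06, SE 0.32, unadjusted limma p = 0.0135, exact test adjusted p = 0.0979). The other GSTA1 copy, with which it may share reads, had 10.6, 15.6 and 18.3 CPM in BaP testes, against 24.7, 23.9 and 34.3 CPM in control testes (unadjusted limma p = 0.0141, exact test adjusted p = 0.961). The efflux transporter abcg2a had 27.3, 15.7 and 13.8 CPM in BaP testes, against 38.3, 30.9 and 32.3 CPM in control testes (unadjusted limma p = 0.0197, exact test adjusted p = 1). None of these 4 genes passed adjustment by limma, the edgeR tests or DESeq2. For ugt1a1, a glucuronosyltransferase, BaP 2 alone stood apart at 234 CPM. The other BaP testes had 18.4 and 12.6 CPM, against 18.1 to 38.5 CPM in control testes, and without BaP 2 its log2 fold change was -0.84 in place of 0.44. HSP90AB1, the chaperone of the unbound receptor, averaged 6317 ± 344 CPM in BaP testes and 6466 ± 768 CPM in control testes (SD, n = 3 each).

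**Figure D2:**
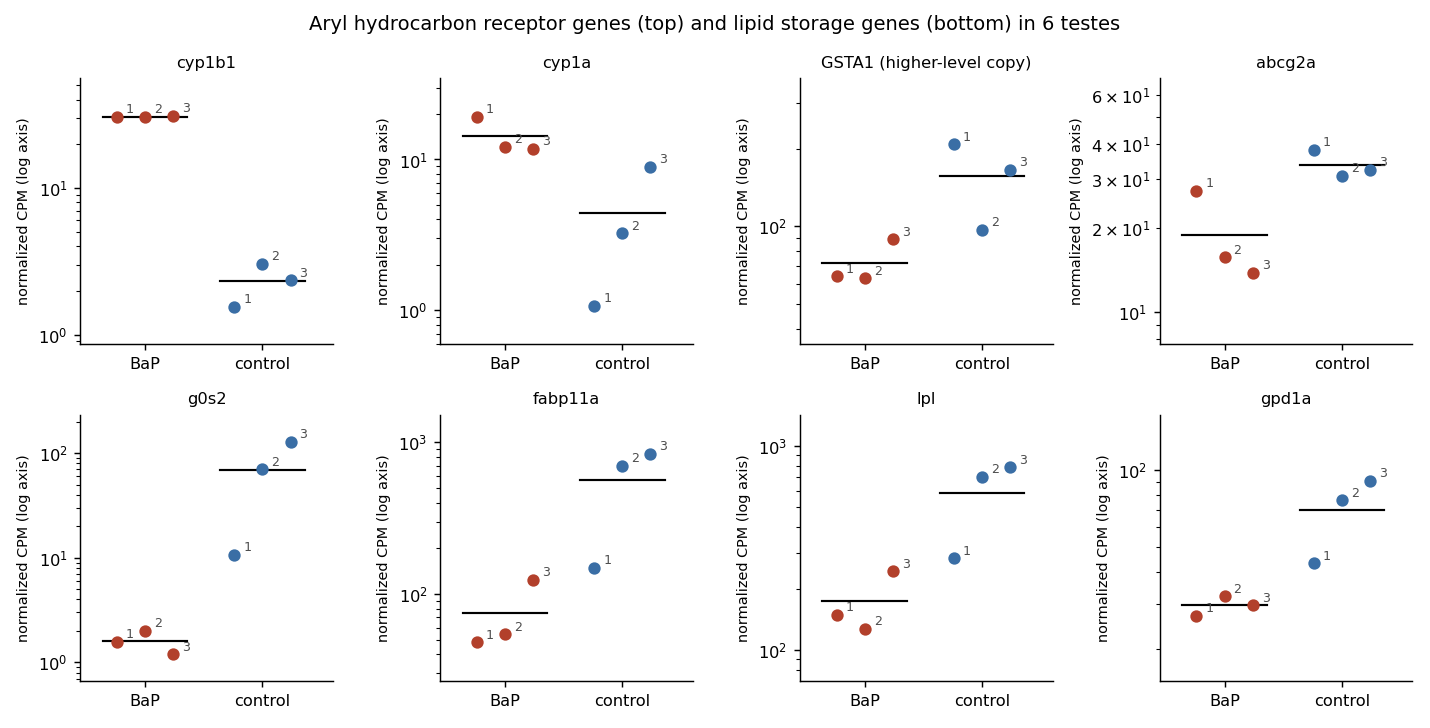
Normalized CPM (log axis) in each testis, BaP left of control, with the replicate number beside each point and a bar at the group mean (3 testes a group). cyp1b1 was at 30.5 to 30.9 CPM in BaP testes and 1.55 to 3.05 CPM in control testes. In the lower row, control 1 lay closest to the BaP testes for g0s2, fabp11a, lpl and gpd1a.

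Several genes of lipid storage were lower in BaP testes. g0s2, which encodes an inhibitor of adipose triglyceride lipase, had 1.58, 2.02 and 1.2 CPM in BaP testes, against 10.6, 70.1 and 128 CPM in control testes. The groups did not overlap, and the control testes were far apart from one another. Its log2 fold change was -4.20 (SE 0.82, p = 0.0014), and it passed adjustment by the exact test (adjusted p = 1.34e-10) but not by limma. fabp11a, a fatty acid binding protein of fat cells, had 48.1, 54.2 and 124 CPM in BaP testes, against 149, 700.4 and 839 CPM in control testes. lpl, lipoprotein lipase, had 149, 127 and 243 CPM in BaP testes, against 281, 704 and 785 CPM in control testes. gpd1a, which makes the glycerol backbone of triglycerides, had 27.1, 32.2 and 29.7 CPM in BaP testes, against 43.3, 76.4 and 91.2 CPM in control testes. These 3 genes also passed the exact test (adjusted p of 0.000258, 0.00306 and 0.0400), and in each of them control 1 was the control nearest to the BaP testes.

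Of 29 genes found on the lipid storage and lipogenesis list, 7 were lower and 1 higher at the threshold of the study. The exact test called 4, all lower, and the median log2 fold change was -0.20. Among all named genes 7.04% passed the threshold. The exact test called 31 of the 1364 named genes, and 0.289% of all genes. The retinol binding protein rbp7b, the triglyceride lipase lipf and the lipid droplet coat plin2 completed the 7, with log2 fold changes of -1.43, -1.11 and -0.82. The gene on the higher side was fasn, fatty acid synthase, with 99.9, 112 and 86.5 CPM in BaP testes, against 69.5, 51.7 and 68.2 CPM in control testes (log2 fold change 0.65, p = 0.0187, exact test adjusted p = 0.823). The other 21 genes did not pass the threshold, and their log2 fold changes ran from -1.08 (irs2a, an insulin signalling adaptor) to 0.80 (scdb, a fatty acid desaturase). The summed level of the 29 genes was 1737, 1468 and 1716 CPM in BaP testes, against 1865, 3299 and 5095 CPM in control testes. Control 1 was thus little above the BaP testes, and controls 2 and 3 were far above. Without control 1, 12 of the 29 genes were lower at the threshold, and with any other testis left out 6 or 7 were. Over all genes, 169 were lower with all testes, 560 without control 1, and 109 to 507 with any other testis left out.

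The exocrine pancreas enzymes that were found were all higher on average in BaP testes. Of 20 symbols on the list, 9 were found, as 10 genes, all among those the study called altered in liver or testis. All 10 had a positive log2 fold change, with a median of 2.14. At the threshold of the study 6 were higher, and 7 passed the exact test. That threshold was passed by 7.04% of named genes. The exact test called 31 of the 1364 named genes, and 0.289% of all genes. CELA1, an elastase, had 1.03, 14.2 and 31.6 CPM in BaP testes, against 0.221, 0.659 and 0.146 CPM in control testes. try, trypsin, had 2.39, 40.1 and 84.6 CPM in BaP testes, against 1.70, 2.85 and 1.65 CPM in control testes. The order BaP 3, BaP 2, BaP 1 held for both, and the trypsin level of BaP 1 fell among the controls. DESeq2 called 6 of the 10 genes, and try was not among them (adjusted p = 0.0503). The higher of the amylase genes AMY2B had 4.77, 6.97 and 18.0 CPM in BaP testes, against 0.775, 2.26 and 1.21 CPM in control testes (log2 fold change 2.03, exact test adjusted p = 0.0293). The proteases zgc:136461 and prss59.1 and the elastases ela2 and ela2l also passed the exact test, with log2 fold changes of 2.26, 2.31, 2.30 and 1.79. The summed level of the 10 genes was 13.1, 104 and 254 CPM in BaP testes, against 5.68, 11.4 and 6.37 CPM in control testes. BaP 2 and BaP 3 exceeded all controls in 10 of 10 genes and BaP 1 in 4 of 10. How many of all genes did so in a single BaP testis was not counted. Every BaP testis lay above every control in 4 of the 10, against 3.24% of all genes. With 1 testis left out, the number of the 10 genes at the threshold was 10 without BaP 1, 1 without control 1, 2 without control 2, and 3 without BaP 2, BaP 3 or control 3. Over all genes, 200 were higher with all testes and 152 to 390 with 1 testis left out. CPA3, a carboxypeptidase outside this list, had 12.9, 15.6 and 42.7 CPM in BaP testes, against 1.66, 1.91 and 3.55 CPM in control testes (log2 fold change 2.72, SE 0.46, exact test adjusted p = 8.88e-05). In livers it averaged 2251 CPM in BaP fish and 1824 CPM in control fish. The liver of tilapia holds pancreatic tissue, and in the livers try averaged 10527.5 CPM in BaP fish and 8449 CPM in control fish. The part of pancreatic tissue in these testis values was not tested.

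Transcripts of plasma proteins made by the liver were mostly higher, and BaP 2 had the highest levels of many of them. Of 37 genes found, 32 had a positive log2 fold change, and the median was 1.27. At the threshold 7 were higher and 2 lower, and 4 passed the exact test. Among all named genes 7.04% passed the threshold. The exact test called 31 of the 1364 named genes, and 0.289% of all genes. BaP 2 exceeded every control in 31 of the 37 genes, BaP 1 in 24 and BaP 3 in 14. How many of all genes did so in a single BaP testis was not counted. Every BaP testis lay above every control in 11 of the 37, against 3.24% of all genes. LECT2, a secreted liver cytokine, had 5.47, 70.6 and 8.78 CPM in BaP testes, against 1.03, 1.25 and 2.82 CPM in control testes (exact test adjusted p = 0.00207). The fibrinogen chain gene fgg had 5.69, 72.1 and 2.24 CPM in BaP testes, against 2.47, 1.70 and 1.06 CPM in control testes, and the apolipoprotein gene apoa2 had 8.15, 84.5 and 2.75 CPM in BaP testes, against 0.923, 1.84 and 1.46 CPM in control testes. Both stood far higher in BaP 2 than in either other BaP testis. They passed the exact test (adjusted p of 0.0291 and 0.00275) but not DESeq2 (adjusted p of 0.338 and 0.106), which called 3 genes of the list. Without BaP 2 the median of the 37 genes was 0.47, with 29 positive log2 fold changes and 6 genes higher at the threshold. That number was 11 without BaP 1, 21 without BaP 3, and 3 without control 1 or control 2. Over all genes, 200 were higher with all testes, 152 without BaP 2, 224 without BaP 1 and 322 without BaP 3. It was 224 without control 1 and 219 without control 2. In a few members the BaP testes lay nearer together. f10, coagulation factor X, had 3.08, 4.53 and 1.91 CPM in BaP testes, against 0.406, 0.0694 and 0.439 CPM in control testes (log2 fold change 1.64, SE 0.28, p = 0.000709, exact test adjusted p = 0.0306). Control 2 was under the limit of 3 reads, and controls 1 and 3 were low but above it. ITIH4, a plasma protein of the inter-alpha-trypsin inhibitor family, had 5.25, 11.8 and 6.80 CPM in BaP testes, against 0.997, 2.71 and 1.98 CPM in control testes (exact test adjusted p = 0.196). The related itih1 had 11.2, 12.2 and 16.0 CPM in BaP testes, against 5.61, 8.02 and 6.01 CPM in control testes. The lectin gene MBL2 was on the lower side, at 231, 169 and 542 CPM in BaP testes, against 1135, 483 and 1004 CPM in control testes. The summed level, in which MBL2 weighs heavily, did not separate the groups. It was 484, 1339 and 854 CPM in BaP testes, against 1376, 739 and 1443 CPM in control testes.

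**Figure D3:**
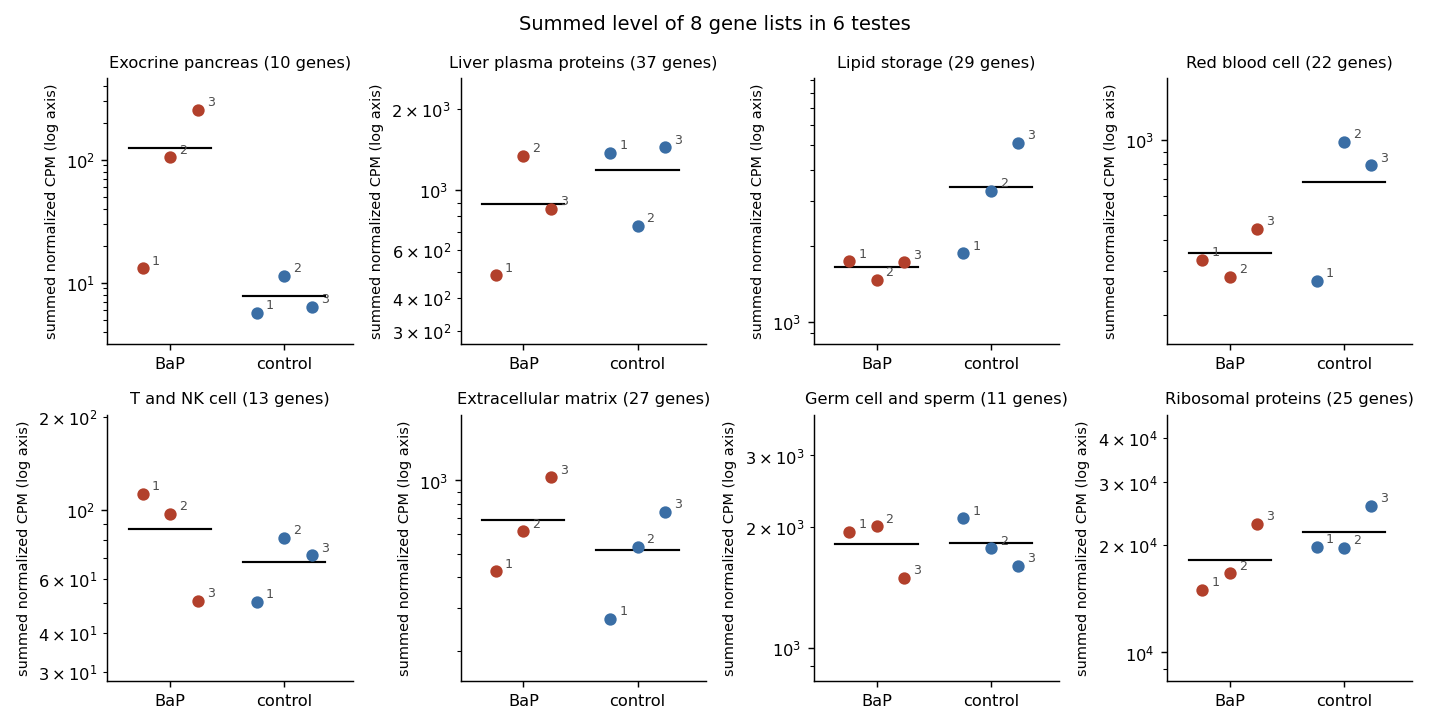
Summed normalized CPM (log axis) of the members of 8 gene lists in each testis, BaP left of control, with the replicate number beside each point and a bar at the group mean. The pancreatic sum was 13.1 to 254 CPM in BaP testes and 5.68 to 11.4 CPM in control testes, and is the 1 sum of the 8 whose BaP testes all lie above the controls. The lipid storage sums of the BaP testes all lie below the controls.

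Red blood cell genes split the controls. Of 22 genes found, 17 had a negative log2 fold change, with a median of -0.35. At the threshold of the study, which 7.04% of all named genes passed, 1 was higher and 1 lower. A beta globin gene, HBB (ENSONIG00000001489), had 43.5, 18.8 and 27.5 CPM in BaP testes, against 27.8, 354 and 212 CPM in control testes. The other HBB copy, with which it may share reads, had 20.2, 9.58 and 32.7 CPM in BaP testes, against 15.7, 252 and 199.6 CPM in control testes. In both, control 1 was as low as the BaP testes, and the groups overlapped. Both passed the exact test (adjusted p of 0.00908 and 0.0180), while their limma p was 0.0480 and 0.0657. By DESeq2 neither passed (adjusted p of 0.391 and 0.482). A gene outside the list, si:xx-by187g17.1, had 43.2, 19.8 and 45.3 CPM in BaP testes, against 30.7, 453 and 261 CPM in control testes. It also passed the exact test (adjusted p = 0.0117) but not DESeq2 (adjusted p = 0.435). The red cell anion exchanger slc4a1a had 2.28, 2.02 and 2.56 CPM in BaP testes, against 1.62, 13.2 and 9.52 CPM in control testes. Controls 2 and 3 were again the high ones, and control 1 lay below every BaP testis. The transferrin receptor tfr1b was the 1 gene of the list higher at the threshold of the study, at 79.4, 78.7 and 58.4 CPM in BaP testes, against 39.5, 51.2 and 47.1 CPM in control testes (unadjusted limma p = 0.0225, exact test adjusted p = 0.952).

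T and natural killer cell genes included several at higher levels in BaP testes. Of 13 genes found, 9 had a positive and 4 a negative log2 fold change, with a median of 1.05. At the threshold of the study, which 7.04% of all named genes passed, 4 were higher and 0 lower. Their summed level overlapped between groups, at 113, 97.6 and 51.1 CPM in BaP testes, against 50.5, 81.5 and 71.6 CPM in control testes. By limma 0 of the 13 passed adjustment, 4 had an unadjusted p under 0.05, and the exact test called 1. The exact test called 31 of the 1364 named genes, and 0.289% of all genes. The number higher at the threshold was 7 without BaP 3, 5 without control 3 and 3 with any other testis left out. On the lower side, 2 genes passed it without control 1 and 1 without control 3. Over all genes, 200 were higher with all testes, 322 without BaP 3 and 390 without control 3. Lower were 169 with all testes, 560 without control 1 and 177 without control 3. TRBC1, the constant chain of the T cell receptor, had 4.55, 4.53 and 3.76 CPM in BaP testes, against 1.44, 1.49 and 1.72 CPM in control testes. tbx21, the T-bet transcription factor, had 1.76, 1.85 and 2.24 CPM in BaP testes, against 0.185, 0.555 and 0.513 CPM in control testes. In both, the spread within each group was small beside the gap between them, and the unadjusted limma p was 0.000707 and 0.00116. Neither passed the exact test (adjusted p of 0.990 and 0.439). LAG3, an inhibitory receptor of activated T cells, had 6.50, 3.57 and 1.36 CPM in BaP testes, against 0.258, 0.555 and 0.439 CPM in control testes, and is the gene that passed the exact test (adjusted p = 0.0435). sh2d1ab, an adaptor of lymphocyte receptors, was the fourth, and its groups overlapped. On the lower side, the BaP mean was 0.400 of the control mean for p2ry10 and 0.517 for gpr174, and neither passed the threshold. On the myeloid list, 8 of 12 genes had a negative log2 fold change, as had 9086 of all 16930 genes. The median was -0.09, and the summed level was 188, 193 and 262 CPM in BaP testes, against 149, 444 and 612 CPM in control testes. The 1 gene of this list at the threshold was SIGLEC10, an inhibitory lectin, with 5.91, 4.20 and 3.56 CPM in BaP testes, against 0.812, 1.74 and 1.57 CPM in control testes (unadjusted limma p = 0.00211, exact test adjusted p = 0.672). Of 6 B cell genes and 7 MHC and antigen processing genes, 0 passed an unadjusted p of 0.05 by limma, and the exact test adjusted over all genes called 0. Their medians were 0.77 and 0.70. The summed level of the MHC and antigen processing genes was 99.0, 74.6 and 48.8 CPM in BaP testes, against 36.2, 34.5 and 42.2 CPM in control testes, so that all BaP testes lay above all controls.

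Extracellular matrix genes went both ways. Of 27 genes found, 5 were higher and 2 lower at the threshold, which 7.04% of all named genes passed. The median was 0.15. col12a1a, a fibril-associated collagen, had 17.2, 39.0 and 46.8 CPM in BaP testes, against 6.79, 7.46 and 10.5 CPM in control testes (log2 fold change 1.84, SE 0.39, p = 0.00218, exact test adjusted p = 0.00239). CD44, the hyaluronan receptor, had 7.53, 7.17 and 5.67 CPM in BaP testes, against 2.88, 1.35 and 2.71 CPM in control testes (unadjusted limma p = 0.00181, exact test adjusted p = 0.678). SMOC1, timp2b and THBS1, a matricellular protein, a metalloproteinase inhibitor and a thrombospondin, were the other 3 on the higher side, with log2 fold changes of 1.48, 1.92 and 1.16. On the lower side were spon1b, a secreted matrix protein, and spock3, a proteoglycan, which had 36.9, 35.6 and 61.3 CPM in BaP testes, against 52.5, 164 and 202 CPM in control testes (exact test adjusted p = 0.0342). Here too control 1 lay within the BaP range. DESeq2 called 1 gene of the list, and not spock3 (adjusted p = 0.0862). Without BaP 3 the median of the list was -0.12, and with any other testis left out it was 0.02 to 0.55.

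Lists tied to spermatogenesis and to the genotoxic action of BaP had at most 1 gene each at the threshold of the study, which 7.04% of all named genes passed. On the germ cell and sperm list, 0 of 11 genes had a limma p under 0.05, 0 passed the exact test, and the median was 0.01. Their summed level was 1943, 2003 and 1492 CPM in BaP testes, against 2098, 1768 and 1600.5 CPM in control testes, which overlap. Of 13 gonadal steroid and somatic cell genes, hsd3b7, a sterol dehydrogenase, was lower at the threshold (log2 fold change -1.10, unadjusted limma p = 0.0326, exact test adjusted p = 0.657) and the median was -0.14. Of 20 DNA damage and p53 response genes, the stress factor nupr1 was lower (log2 fold change -1.18, unadjusted limma p = 0.0255, exact test adjusted p = 0.468) and 0 were higher at the threshold, with a median of 0.00. The DNA end-binding gene xrcc6 (Ku70) had 305, 261 and 234 CPM in BaP testes, against 194, 199.9 and 171 CPM in control testes, a difference in all testes but under 1.5-fold (unadjusted limma p = 0.0392, exact test adjusted p = 1). ccng1, cyclin G1, a p53 target, averaged 454 ± 41.5 CPM in BaP testes and 454 ± 32.9 CPM in control testes (SD, n = 3 each).

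Mitosis genes, at up to 1773 CPM, had 0 of 31 members with a limma p under 0.05, 0 past the exact test and a median of 0.07. Without control 1, 30 of the 31 had a positive log2 fold change, with a median of 0.21, and 2 were higher at the threshold of the study. Without control 3, 18 of the 31 were negative, with a median of -0.04. Of 16 immediate early and stress genes, 0 had a limma p under 0.05 and 0 passed the exact test. At the threshold of the study, 4 were lower without control 1 and 1 without BaP 3, and 1 was higher without BaP 1. On the circadian clock list, 12 of 16 genes had a negative log2 fold change, with a median of -0.31. Of all 16930 genes, 9086 had a negative one. Lower at the threshold of the study were 3 genes without control 1, 2 without BaP 3 and 1 without control 3. With all testes, 0 passed that threshold or the exact test. per2, a clock repressor, alone had a p under 0.05, at 15.5, 16.5 and 20.0 CPM in BaP testes, against 11.1, 11.9 and 12.4 CPM in control testes (unadjusted limma p = 0.0303, exact test adjusted p = 1). Among all named genes 7.04% passed the threshold of the study. Of 14 hypoxia-responsive genes, 12 had a negative log2 fold change, with a median of -0.40. One of them, egln3, an oxygen-sensing hydroxylase, was lower at the threshold, with 18.3, 9.88 and 27.1 CPM in BaP testes, against 29.1, 73.1 and 51.1 CPM in control testes (unadjusted limma p = 0.0157, exact test adjusted p = 0.117). The number lower at the threshold was 7 without control 1, 3 without BaP 3 and 0 without control 2. Over all 16930 genes, 169 were lower at that threshold with all testes. That total was 560 without control 1, 507 without BaP 3, 215 without control 2 and 177 without control 3. Higher over all genes were 200 with all testes and 224 without control 1 or without BaP 1. Ribosomal protein genes had small negative values with all testes: all 25 had a negative log2 fold change (24 with library size only), with a median of -0.26, and 0 had a limma p under 0.05 or passed the exact test. The median was -0.15 without BaP 1 or control 3 and -0.44 without BaP 3, and without control 3 it rested on 21 negative and 4 positive values. BaP 3 lay below every control in 0 of the 25 genes, BaP 1 in 24 and BaP 2 in 23. How many of all genes did so in a single BaP testis was not counted. Every BaP testis lay below every control in 0 of the 25, against 2.84% of all genes. rpl8, a protein of the large ribosomal subunit, had 897, 945 and 1279 CPM in BaP testes, against 1159, 1159 and 1427 CPM in control testes (log2 fold change -0.27, SE 0.22, unadjusted limma p = 0.256, exact test adjusted p = 1).

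Outside the lists, the genes on the lower side with the smallest p included NUGGC, a nuclear GTPase, which had 0.808, 1.45 and 1.72 CPM in BaP testes, against 6.53, 6.07 and 7.36 CPM in control testes (log2 fold change -1.74, SE 0.22, p = 0.000113, exact test adjusted p = 0.0678). Its groups were compact and well apart. cnpy1, a regulator of growth factor signalling, had 24.2, 20.0 and 25.5 CPM in BaP testes, against 42.0, 42.7 and 47.5 CPM in control testes (unadjusted limma p = 0.0022, exact test adjusted p = 0.295). ITGA5, a fibronectin receptor subunit, and the integrin-binding gene mibp were lower by 0.93 and 0.87 on the log2 scale in all BaP testes. On the higher side, slc25a26, the mitochondrial carrier of S-adenosylmethionine, had 15.1, 17.9 and 14.5 CPM in BaP testes, against 8.71, 5.94 and 6.96 CPM in control testes (unadjusted limma p = 0.00171, exact test adjusted p = 0.73). scinlb, an actin-severing protein, had 34.8, 41.2 and 26.7 CPM in BaP testes, against 9.23, 11.8 and 18.6 CPM in control testes (unadjusted limma p = 0.003, exact test adjusted p = 0.103). None of these 6 genes passed an adjusted p of 0.05 by limma or by the exact test. DESeq2 called NUGGC, cnpy1, slc25a26 and scinlb (adjusted p of 0.000405, 0.00932, 0.0451 and 0.0257).

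Several other genes that passed the exact test varied widely within a group. LGALS1, galectin-1, had 6.35, 12.2 and 15.9 CPM in BaP testes, against 22.6, 58.5 and 211 CPM in control testes. TKT, a transketolase, had 0.844, 1.49 and 3.79 CPM in BaP testes, against 48.3, 2.05 and 57.7 CPM in control testes. Control 2 was as low as the BaP testes for TKT, and the citrate transporter slc13a5b (13.4, 1.46 and 14.1 CPM in control testes, all BaP testes at or below 1.16) and the anchoring protein lad1 had the same control low. ppp1r13ba, a p53-binding protein, had 2.94, 3.67 and 6.77 CPM in BaP testes, against 4.72, 65.8 and 33.0 CPM in control testes, with control 1 low instead. c1ql4b, a C1q-like secreted protein, reached 15.3 CPM in control 3 and no more than 2.43 CPM in any other testis. On the higher side, the astacin-like protease ASTL had 0.404, 8.16 and 9.10 CPM in BaP testes, against 0.221, 0.278 and 0.293 CPM in control testes. vmo1a had 0.0734, 4.82 and 12.0 CPM in BaP testes, against 0.185, 0.208 and 0.0732 CPM in control testes. Its values in BaP 1 and control 3 were under the limit of 3 reads. Both genes followed the order of the pancreatic enzymes, with BaP 1 lowest among BaP testes. DESeq2 did not call TKT or lad1 (adjusted p of 0.144 and 0.0600). It called LGALS1, slc13a5b, ppp1r13ba, c1ql4b, ASTL and vmo1a.

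Genes listed for testis and not for liver made up 4553 of the 16930, and 0 of them had a name. They were expressed at lower levels than the rest, with a median of 4.13 CPM against 30.0 CPM for the 12377 genes that also have a liver row. By limma 0 of the 4553 passed adjustment, 209 had an unadjusted p under 0.05, the exact test called 15, DESeq2 22 and the quasi-likelihood test 0. At the threshold of the study, 183 passed (4.02%), 86 higher and 97 lower, against 186 of the genes with a liver row (1.5%), 114 higher and 72 lower. The share at the threshold fell with level in both sets. Within a band of mean level the shares were nearer: 5.65% and 4.27% under 1 CPM, 5.00% and 3.87% from 1 to 5 CPM, 4.03% and 2.26% from 5 to 20 CPM, and 1.14% and 0.675% above 20 CPM, in each case without and then with a liver row. No test was made of these differences.

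The genes without a liver row that had the smallest p were unnamed. ENSONIG00000011213 had 5.62, 4.26 and 3.34 CPM in BaP testes, against 0.221, 0.312 and 0.439 CPM in control testes (log2 fold change 2.01, SE 0.22, p = 4.35e-05, exact test adjusted p = 0.000912). ENSONIG00000011211 had 1.51, 1.59 and 2.30 CPM in BaP testes, against 0.0369, 0.0347 and 0.146 CPM in control testes (exact test adjusted p = 0.00139), with 2 controls under the limit of 3 reads. In both, the BaP testes were close together and all well above the controls. On the lower side, ENSONIG00000020825 had 0.257, 0.397 and 0.745 CPM in BaP testes, against 3.65, 3.02 and 2.60 CPM in control testes. ENSONIG00000003108 had 0.0734, 0.364 and 0.486 CPM in BaP testes, against 2.03, 2.33 and 2.31 CPM in control testes, with BaP 1 under the limit of 3 reads. Neither passed the exact test (adjusted p of 0.0887 and 0.125), although no testis of either group came near the other group.

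**Figure D4:**
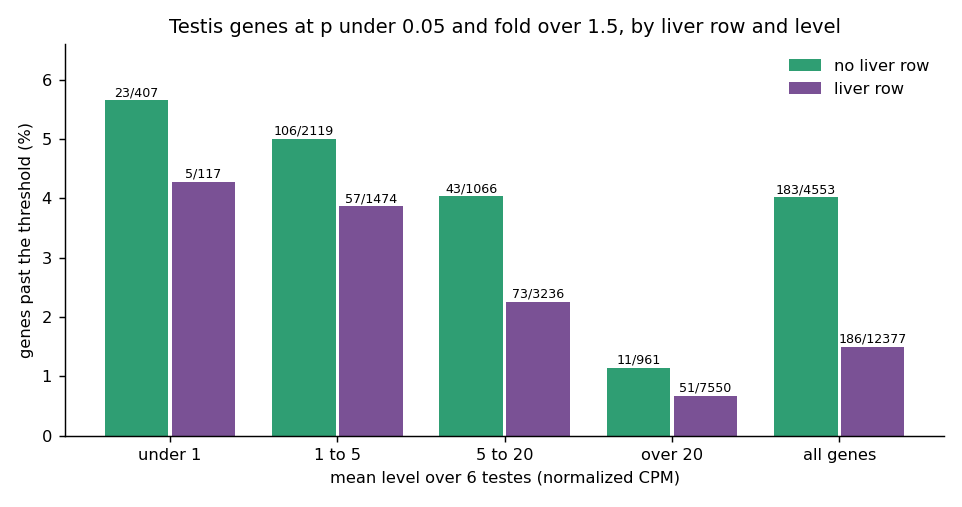
Share of testis genes (%) at p under 0.05 and fold over 1.5, for genes without (green) and with (purple) a row in the liver table, by mean level over 6 testes in normalized CPM. Numbers above the bars are genes past the threshold over genes tested. The shares were 4.02% and 1.5% over all genes and fell to 1.14% and 0.675% above 20 CPM.

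To ask where the testis differed from the liver, the BaP effect in testis minus that in liver was tested over the 12377 shared genes. By limma, 0 genes passed adjustment, and 854 had an unadjusted p under 0.05 (6.9%), 392 with the testis effect above the liver effect and 462 below. Libraries of the 2 tissues share 6 fish numbers in their titles and were taken as independent. With libraries of 1 fish number taken as correlated, 0 genes passed adjustment by limma and 898 had an unadjusted p under 0.05. For cyp1b1, the log2 fold change was 3.28 in testis and 2.04 in liver (difference 1.24, SE 0.84, limma adjusted p = 0.841), and g0s2 was at -4.20 in testis and -2.99 in liver (difference -1.21, SE 0.89, limma adjusted p = 0.859). TRBC1 was at 1.05 in testis and -0.82 in liver (difference 1.87, SE 0.37, limma adjusted p = 0.514). fasn, higher in BaP testes, was at -3.22 in liver (difference 3.87, SE 1.02, limma adjusted p = 0.514). The 25 ribosomal protein genes were lower in all 25 cases in testis, with a median of -0.26, and higher in all 25 in liver, with a median of 0.73, and the difference had an unadjusted p under 0.05 in 25 of 25. These genes are scaled together within each library, so they are not 25 separate observations. Mitosis genes had medians of 0.07 in testis and -1.08 in liver, and 7 of the 31 differences had an unadjusted p under 0.05. Lipid storage genes had medians of -0.20 and -1.04, with 9 of 29 such differences.

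The counts depended on single testes. At the threshold of the study, leaving out BaP 3 gave 829 genes, 322 higher and 507 lower, and leaving out control 1 gave 784 genes, 224 higher and 560 lower. Leaving out control 3 gave 567 genes with the opposite split, 390 higher and 177 lower. BaP 3 and control 1 are the testes that lay across from the rest of their group on the first principal component. Of the 369 genes, between 188 and 272 were still called in any of the 6 reduced sets. The exact test called 26 genes without BaP 2, 111 without BaP 3 and 90 without control 1, and in each of the 6 sets it called cyp1b1 (adjusted p of at most 8.68e-08) and g0s2 (at most 1.93e-06). These exact tests were chosen after the data were seen.

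**Figure D5:**
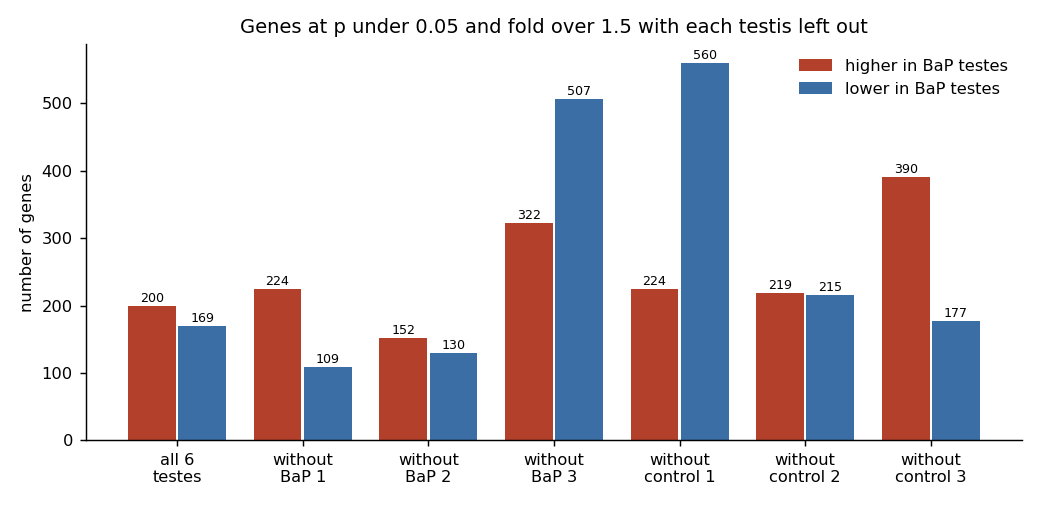
Number of genes at p under 0.05 and fold over 1.5, higher (red) and lower (blue) in BaP testes, with all 6 testes and with each left out in turn. The counts were 200 higher and 169 lower with all testes, and 224 higher and 560 lower without control 1.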

How the data were processed

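Testis and liver RNA was sequenced from poly(A) libraries whose preparation is not stated to mark strand, so overlapping genes on opposite strands cannot be told apart. Per the labels and the methods of the study, the authors trimmed reads, aligned them with TopHat and used edgeR. The genome build and annotation version are not given in the sources used here. The authors deposited 1 table a tissue of a normalized signal, which is CPM divided by a library scaling factor. The deposited signal gave back whole reads in 100% of testis values (tolerance 0.01), and factors recomputed by TMM matched, at 0.893 to 1.05. No coordinates are given, so none are printed.

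limma 3.58.1 (R 4.3.3) was fitted to log2(value + 1) of the 6 testis libraries, without a filter on low values, with Benjamini-Hochberg adjustment over 16930 genes. edgeR 4.0.16 (exact and quasi-likelihood tests) and DESeq2 1.42.0 ran on the recovered reads, since the values are not raw counts and a count test is therefore an alternative. Code was tested on simulated data. p-values measure the spread between fish of 1 experiment.

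Symbols come from the gene list of the study (1526 IDs, 1444 in the testis table). Named were genes past an adjusted test, receptor genes, the 12 higher and 12 lower named genes of smallest p with a fold over 1.5 and groups that do not overlap, up to 4 members a list, and up to 2 unnamed IDs a direction without a liver row. Named list members that passed no threshold are mostly given by counts. Further list members were picked with their values in view. The lists and members were chosen with earlier results of these data known. Alternatives were the other tests, a pseudocount of 0.1, other scalings, a filter (1 CPM in 3 libraries), a replicate block and each testis left out. The qPCR was not analysed here, and the value of 1 list member is not reported here.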

Additional observations from a re-analysis of the deposited data

How the results depend on the processing

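The count at an adjusted p of 0.05 was 1 by limma, 49 by the exact test, 54 by DESeq2, and 0 by the quasi-likelihood test, with a pseudocount of 0.1, with library size only, and with each testis left out (0 to 0). It remained 1 with a trended prior, DESeq2 size factors or the filter. The count at the threshold of the study ranged from 282 to 829 with 1 testis left out, and was 517 by the exact test and 528 by DESeq2. Among genes without a liver row, 0 passed adjustment by limma, 15 by the exact test and 22 by DESeq2, and 156 to 338 passed the threshold of the study with 1 testis left out. The exact test called 26 to 111 genes with 1 testis left out. The replicate number was not used to pair the testes in the main fit. Deviations of same-numbered testes correlated at 0.365, -0.0771 and 0.209, and 3 testes a group are too few to settle a pairing. BaP 1 correlated best with its own number. BaP 2 and BaP 3 did not, BaP 3 reaching 0.242 with control 2. With the replicate number as a block, 0 genes passed adjustment and 589 the threshold of the study. For testis minus liver, 0 to 1 genes passed adjustment with 1 testis left out. Directions reversed for HSP90AB1 (-0.03 with all testes, 0.038 with library size only, -0.086 to 0.067 with 1 testis left out, the highest without control 1) and for ugt1a1 (-0.84 to 1.21 with 1 testis left out, the lowest without BaP 2). Of the 104 genes the naming rule took, no other reversed. Genes outside it were not followed singly. Differences below 0.0972 to 0.111 CPM (3 reads) are not detectable at this depth.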
